A study of Mus musculus with 9 samples.

Results

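Epididymosomes are extracellular vesicles released into the lumen of the epididymis, the duct in which spermatozoa mature after they leave the testis. The miRNAs described here are the products of the Mir221 and Mir222 hairpins, taken as every miRNA in the table whose name begins with miR-221 or miR-222. This gave 3 of 358 miRNAs: miR-221-3p, miR-222-3p and miR-221-5p. The 5p arm of miR-222 was not analysed here. The miRNAs were selected on earlier results of these same libraries, chosen by the levels and the arm ratio given here. Those measures are therefore reported as a description, with standard errors but no test. In brief, miR-221-3p was several-fold higher in every cauda library than in any caput library, and miR-222-3p was highest in the 3 cauda libraries. The level of miR-221-5p overlapped between all segments, so that the 5p arm made up a smaller part of the miR-221 reads in the corpus and cauda than in the caput.

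The study compared the vesicles along the duct, from the proximal caput through the corpus to the distal cauda, where spermatozoa are stored. There were 9 small RNA libraries, 3 for each segment, all from male Swiss mice aged 8 weeks. The labels name no genotype and no treatment. Each replicate was RNA pooled from several animals, and fluid was released by cutting into the dissected segment after the blood vessels had been flushed, so that the 3 values of a segment measure the spread between pools and not between animals. Levels are given as CPM, which sets the reads of each miRNA against all miRNA reads of that library. In these bulk preparations, fewer vesicles from a cell type and less of a miRNA in each vesicle cannot be told apart.

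A miRNA hairpin is cut into a short duplex with a 5p and a 3p strand. As a rule, the strand that is loaded into an Argonaute protein (the guide) accumulates and the other (the passenger) is degraded, and pairing of the guide's seed, bases 2 to 8, with a messenger RNA leads to its repression. The guides of miR-221 and miR-222 come from the 3p arms and share their seed. They are known for repressing the cell cycle inhibitor Cdkn1b and the receptor Kit, and for their abundance in endothelium and vascular smooth muscle.

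The sequences of the 3 members are shown first because the shared seed of the 3p arms, and the separate seed of the 5p arm, define what was counted. They are from RefSeq (GRCm38.p6, matched by name for 3 of 3 members), 5′ to 3′, with the seed in capitals.
miR-221-3p: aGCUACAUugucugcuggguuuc
miR-222-3p: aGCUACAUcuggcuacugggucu
miR-221-5p: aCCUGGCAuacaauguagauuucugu

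The 2 guides had the same first 8 bases and were identical at 11 of 23 positions when aligned from the 5′ end without gaps, so that a read of full length could be told apart by the bases after the seed. In RefSeq the seed was shared by 1 other mature miRNA, miR-1928, which was not among the miRNAs of the table. The seed of miR-221-5p was found in 1 RefSeq mature miRNA, itself. The hairpins are given too because the arm ratio compares 2 pieces of the same molecule. Capitals mark both measured arms of Mir221 and the measured 3p arm of Mir222.
Mir221: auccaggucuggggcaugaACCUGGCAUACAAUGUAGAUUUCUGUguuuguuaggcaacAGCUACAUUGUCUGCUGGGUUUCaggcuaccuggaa
Mir222: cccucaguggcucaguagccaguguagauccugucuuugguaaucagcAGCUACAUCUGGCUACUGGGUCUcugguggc

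In GRCm38.p6 both hairpins lie on the minus strand of the X chromosome. Mir221 covers 95 bases at chrX:19146294-19146388 and Mir222 covers 79 bases at chrX:19146893-19146971, with 504 bases between them. The mature miR-221-3p lies at chrX:19146307-19146329, miR-221-5p at chrX:19146344-19146369 and miR-222-3p at chrX:19146901-19146923. No other gene of the GENCODE M21 annotation overlaps either hairpin, which places them between genes. The nearest protein-coding genes are Tex13c3, 332448 bases from Mir222, and 4930578C19Rik, 684896 bases from Mir221. The build used by the authors is not given in the sources used here, and coordinates were taken by name only.

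The caput libraries held 8274421 to 11306605 reads on miRNAs, those of the corpus 1548581 to 6190324 and those of the cauda 2001086 to 5896748. A count of 3 reads was worth 0.265 to 1.94 CPM, and each member was above 3 reads in all 9 libraries. The median miRNA was higher in the distal segments on the CPM scale, by 0.47 on the log2 scale from caput to corpus, 0.18 from corpus to cauda and 0.81 from caput to cauda. These medians were −0.10, 0.08 and 0.07 after TMM normalization, which rescales each library to the bulk of its miRNAs. Each level below therefore has to be read against this shift, whereas a ratio of 2 miRNAs within a library is not touched by scaling.

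miR-221-3p was the most abundant member in all 9 libraries, and its level was ordered caput, corpus, cauda with no overlap between neighbours. It was at 327, 184 and 406 CPM in caput replicates 1, 2 and 3. The corpus libraries were at 1077, 866 and 1213 CPM, and the cauda libraries at 2545, 3089 and 1914 CPM. The lowest corpus value was 2.14-fold the highest caput value, and the lowest cauda value was 1.58-fold the highest corpus value. Mean levels were 305 ± 112, 1052 ± 175 and 2516 ± 588 CPM (SD, n = 3). The log2 difference was 1.84 (SE 0.38) from caput to corpus, 1.24 (SE 0.38) from corpus to cauda and 3.09 (SE 0.38) from caput to cauda, the last an 8.49-fold difference. Relative to the median of all miRNAs compared, these differences were 1.38, 1.06 and 2.28. Among the 349 miRNAs compared between caput and cauda, miR-221-3p stood 22nd from the highest difference. It was 76th of 358 by mean level in the caput, 49th in the corpus and 31st in the cauda.

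miR-222-3p, which carries the same seed, was less abundant than miR-221-3p in every library and was set apart only in the cauda. Caput replicates 1, 2 and 3 were at 150, 98.4 and 201 CPM, corpus replicates at 265, 233 and 192 CPM, and cauda replicates at 972, 585 and 543 CPM. Caput and corpus overlapped, since corpus replicate 3 lay below caput replicate 3. The lowest cauda value was 2.05-fold the highest corpus value. Mean levels were 150 ± 51.4, 230 ± 36.5 and 700 ± 237 CPM (SD, n = 3). The log2 difference from caput to corpus was 0.66 (SE 0.41), and only 0.20 above the median of all miRNAs. From corpus to cauda it was 1.56 (SE 0.41), and from caput to cauda 2.22 (SE 0.41), a 4.67-fold difference that was 1.41 above the median. The order of its levels was thus caput, corpus, cauda by the means, with the first 2 not separated by their spread.

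miR-221-5p, the arm that is usually degraded, lay near the bottom of the table, at 283rd of 358 by its mean over all libraries, and its segments overlapped in every comparison. The caput libraries were at 18.3, 9.18 and 15.9 CPM, those of the corpus at 17.6, 7.83 and 4.52 CPM, and those of the cauda at 17.5, 22.0 and 12.2 CPM. These values rest on 76 to 207 reads per caput library, 109, 20 and 7 reads per corpus library and 35 to 72 reads per cauda library. Mean levels were 14.4 ± 4.72, 9.99 ± 6.80 and 17.2 ± 4.89 CPM (SD, n = 3), and corpus replicate 1 stood above the other 2 corpus libraries. The order by the means was corpus, caput, cauda, and no neighbours in it were separated by their spread. The log2 difference from caput to cauda was 0.25 (SE 0.51), and it was −0.38 after TMM normalization, so its sign depended on the scaling. From caput to corpus the difference was −0.62 (SE 0.51) and from corpus to cauda 0.88 (SE 0.51). Against the median of all miRNAs, the difference from caput to cauda was −0.56.

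**Figure D1:**
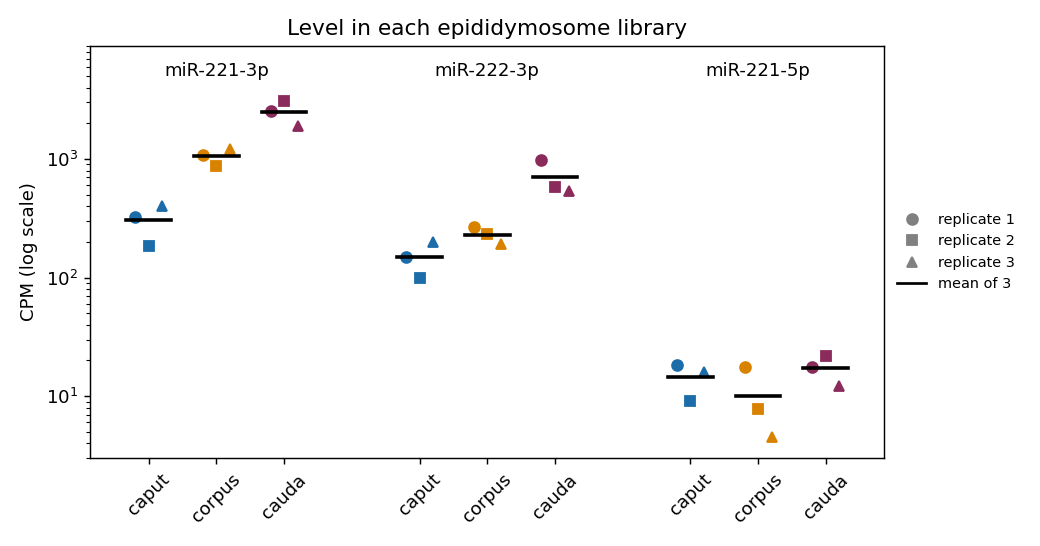
Level of miR-221-3p, miR-222-3p and miR-221-5p in each library, in CPM on a log axis, by segment; symbols mark the replicate number and bars the mean of 3. The miR-221-3p points step up without overlap (means 305, 1052 and 2516 CPM), the miR-222-3p points separate in the cauda (700 CPM), and the miR-221-5p points overlap in all segments.

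Of the 3 members, 1 had every corpus library above every caput library, as had 29.3% of the 321 miRNAs compared. All cauda libraries lay above all corpus libraries for 2 of 3 members, and for 30.1% of 342 miRNAs. The same 2 members, miR-221-3p and miR-222-3p, had all cauda libraries above all caput libraries, beside 42.4% of 349 miRNAs. Nothing was read from these member counts, since the levels had chosen the members. In the fit across the whole table (limma, Benjamini-Hochberg adjusted p under 0.05 and at least a 2-fold difference), 19.0% of miRNAs were higher and 3.43% lower in the corpus than in the caput. From corpus to cauda, 14.0% were higher and 4.97% lower, and from caput to cauda 38.7% were higher and 10.3% lower.

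The caput libraries carried most of the dependence on scaling. Caput replicate 2 was the lowest of the 3 caput libraries for every member, and its TMM factor was 0.478 against 0.753 and 1.16 for the other caput libraries and 1.08 to 1.29 for the corpus and cauda. After TMM normalization, miR-221-3p lay between 348 and 434 CPM in the caput, with means of 389 ± 42.9, 944 ± 164 and 2117 ± 551 CPM along the duct (SD, n = 3). Its caput to cauda difference was then 2.41. For miR-222-3p the caput and corpus means became 193 ± 17.5 and 207 ± 37.7 CPM and the cauda mean 598 ± 260 CPM. The caput to corpus difference of miR-222-3p was 0.09 on that scale, and its caput to cauda difference 1.55. Both guides were thus highest in the cauda under either scaling.

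The share of the 5p arm among all miR-221 reads does not depend on scaling, and it was highest in the 3 caput libraries. It was 5.30% (95% Wilson interval 4.64 to 6.05) in caput replicate 1, 4.76% (3.82 to 5.92) in replicate 2 and 3.76% (3.19 to 4.44) in replicate 3. In the corpus it was 1.61% (1.33 to 1.94), 0.896% (0.581 to 1.38) and 0.371% (0.180 to 0.764). In the cauda it was 0.683% (0.491 to 0.948), 0.706% (0.533 to 0.935) and 0.634% (0.504 to 0.797). The lowest caput share was 2.34-fold the highest share in any corpus or cauda library, and the intervals of the caput libraries did not meet those of the others. Corpus and cauda overlapped. The intervals cover counting error only, since reads without molecular identifiers are not independent molecules.

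**Figure D2:**
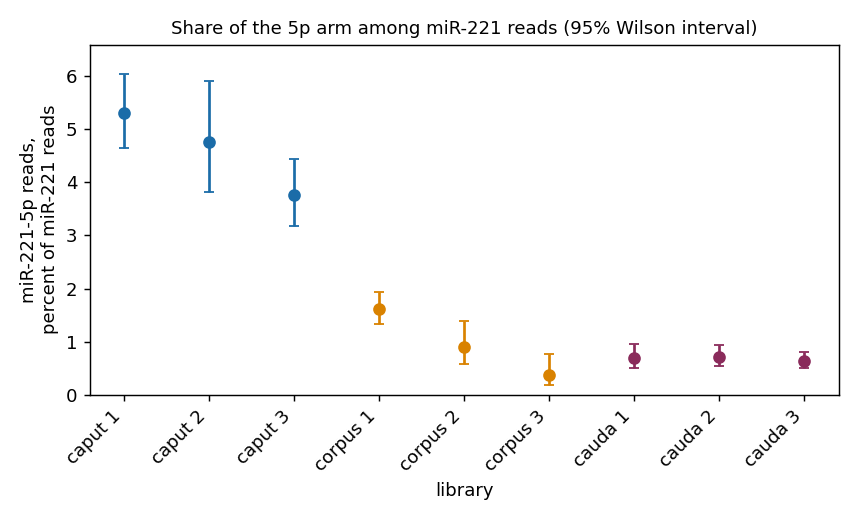
Percent of miR-221 reads that came from the 5p arm in each of the 9 libraries, with the 95% Wilson interval as error bars. The caput libraries sit between 3.76% and 5.30%, and all corpus and cauda libraries at or below 1.61%.

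Relative to their mean, the corpus shares were more spread than those of either other segment. Caput shares averaged 4.61% ± 0.783, corpus shares 0.958% ± 0.621 and cauda shares 0.674% ± 0.0370 (SD, n = 3). The caput mean was 4.81-fold the corpus mean and 6.84-fold the cauda mean, and the corpus mean was 1.42-fold the cauda mean. Summed over libraries, 417 of 9060 miR-221 reads of caput vesicles were of the 5p arm, beside 136 of 10897 for the corpus and 155 of 23285 for the cauda. Corpus replicates 1, 2 and 3 had 109 of 6779, 20 of 2232 and 7 of 1886 reads, and the 1st and the last of these had intervals that did not meet.

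Seen from the guide, each 5p read stood beside 17.9, 20.0 and 25.6 reads of miR-221-3p in the caput libraries. In the corpus this was 61.2, 111 and 268, and in the cauda 145, 141 and 157. On the log2 scale, with 0.5 CPM added to each arm, the 5p to 3p ratio averaged −4.33 ± 0.27 for caput, −6.84 ± 1.02 for corpus and −7.16 ± 0.07 for cauda libraries (SD, n = 3). The difference was −2.50 (SE 0.45) from caput to corpus, −0.32 (SE 0.45) from corpus to cauda and −2.83 (SE 0.45) from caput to cauda. Relative to the caput, the ratio was therefore 5.67-fold lower in corpus and 7.09-fold lower in cauda vesicles. Depth also differed between the segments, with all caput libraries the deeper ones. Corpus replicate 1 and cauda replicate 3, the deepest of their segments at 6190324 and 5896748 reads, had shares of 1.61% and 0.634%, whereas the caput libraries had 3.76% or more. Within the corpus the share went with depth, at 1.61%, 0.896% and 0.371% in libraries of 6190324, 2553385 and 1548581 reads. The part of depth in the difference between segments was not tested.

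Both arms were measured at a mean of at least 10 CPM for 64 precursors, against which the arm ratio of miR-221 can be placed. Over all 9 libraries miR-221 had the 9th lowest 5p to 3p ratio, with a mean log2 ratio of −6.11, and 31 of the 64 precursors had a mean log2 ratio below 0. The next lower were miR-200b at −6.89, miR-127 at −7.42 and miR-148a at −7.87. The next higher were miR-200a at −6.05, miR-210 at −5.33 and miR-148b at −5.17. miR-221 is thus 1 of a group of precursors with a strongly favoured 3p arm, and its within-segment SD of 0.61 was close to the median of 0.49 over the 64. Its neighbours in this order had differences from caput to cauda of 0.48 for miR-200b, 0.79 for miR-127, −0.45 for miR-148a, −0.41 for miR-200a, −0.92 for miR-210 and 0.42 for miR-148b. None of these 6 passed the test (limma, adjusted p from 0.115 to 0.440).

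**Figure D3:**
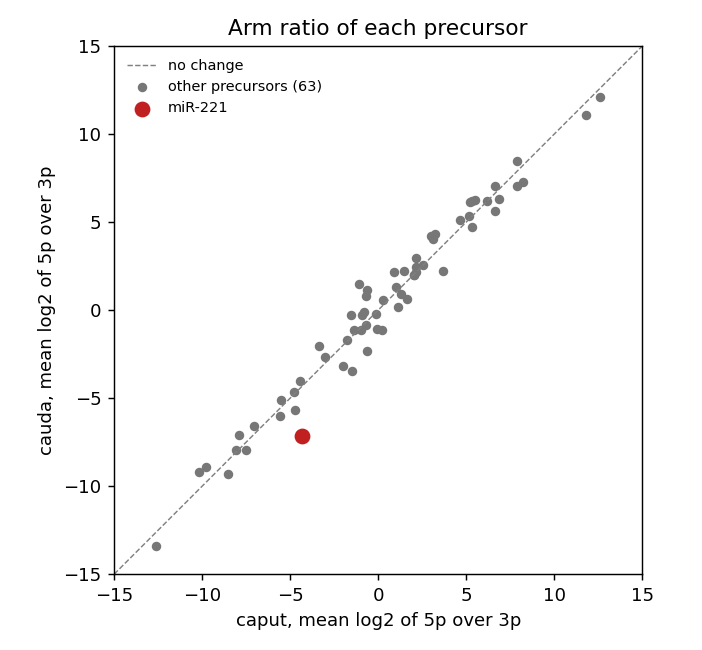
Mean log2 of 5p over 3p in caput (horizontal) and cauda (vertical) libraries for 64 precursors, with the line of no difference. miR-221 (red) lies 2.83 below the line, at −4.33 in the caput and −7.16 in the cauda, and the other 63 precursors (grey) lie nearer to it.

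The difference of miR-221 was the largest of the 64 from caput to corpus and from caput to cauda, and it was 14th from the lowest from corpus to cauda. The median precursor differed by −0.05, 0.12 and 0.10 in these comparisons. From caput to cauda, 28 of 64 precursors had a lower ratio and the others a higher one. Every corpus library lay below every caput library in arm ratio for 12.5% of precursors, and every cauda library for 10.9%, miR-221 being among both. With the rule of an adjusted p under 0.05 and at least a 2-fold difference, the arm ratio was called for 1.56% of precursors from caput to corpus, which is miR-221 itself, for 6.25% from corpus to cauda and for 14.1% from caput to cauda. Because the ratio of miR-221 had chosen it, its own place in these counts is a description.

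Among the other precursors, the arm ratio of miR-465b, from an X-linked testis-expressed cluster, was higher in the cauda, by 3.33 (SE 0.52) against the corpus (limma, adjusted p = 0.00200) and by 2.58 (SE 0.52) against the caput (adjusted p = 0.0103). Its 3p arm has the same values as that of miR-465a in every library, and nearly the same mean as that of miR-465c (23.0 and 22.9 CPM). These 3p reads therefore cannot be assigned to 1 hairpin, and the ratio of miR-465b may mix hairpins. The ratio of miR-434, from an imprinted miRNA cluster, was lower in the cauda, by −2.18 (SE 0.47) against the corpus (adjusted p = 0.0124) and by −1.97 (SE 0.47) against the caput (adjusted p = 0.0260). That of miR-1839 was higher in the cauda than in the corpus, by 1.57 (SE 0.34, adjusted p = 0.0124). The call of miR-434 against the caput was lost without caput replicate 1, 2 or 3 or cauda replicate 1 or 2, and against the corpus without replicate 2 of either segment. That of miR-1839 was lost without corpus replicate 1 or 2 or cauda replicate 2, and that of miR-465b against the caput without caput replicate 1. The 3 precursors differed between corpus and cauda, the step at which miR-221 differed by −0.32.

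The 2 arms of miR-221 can also be set side by side by their levels. From caput to cauda, miR-221-3p had the 2nd highest difference of the 64 3p arms, below miR-335-3p at 3.22, whereas miR-221-5p was 45th of the 64 5p arms. The median difference was 0.69 for 3p arms and 0.76 for 5p arms, so that the 3p arm of miR-221 lay well above the median and its 5p arm below. There were 12 precursors whose 3p arm was higher in the cauda by at least 2 on the log2 scale, a limit set after the values had been seen. The 5p arms of the other 11 had differences of 0.33 to 4.70, with a median of 1.89, and miR-221-5p had the lowest of the 12 at 0.25. Next to it stood miR-434 at 0.33, miR-152 at 0.55 and miR-142a at 0.72. For miR-335 the 5p arm differed by 1.89.

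**Figure D4:**
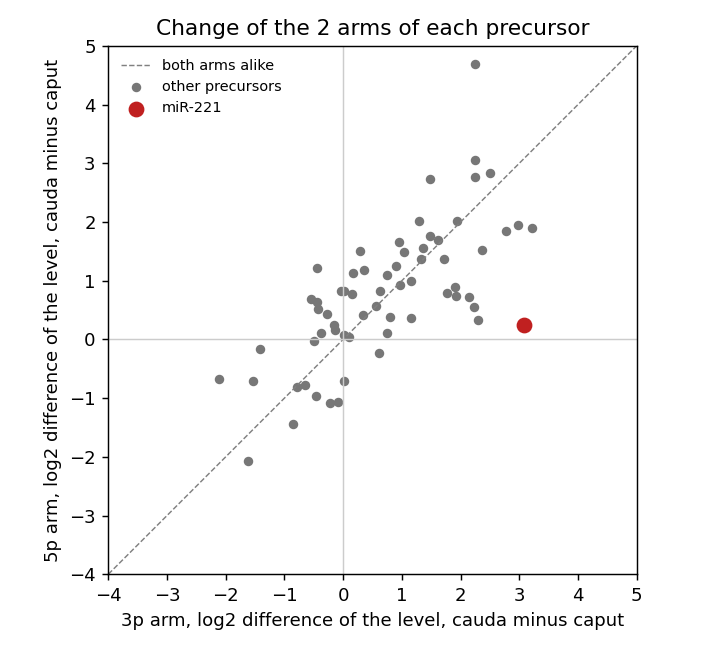
Log2 difference of the level from caput to cauda for the 3p arm (horizontal) and the 5p arm (vertical) of 64 precursors, with the line on which both arms are alike. Most precursors follow the line, and miR-221 (red) lies at 3.09 for its 3p arm and 0.25 for its 5p arm.

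The 2 guides with the shared seed differed in their balance between segments. Per CPM of miR-222-3p, the caput libraries had 2.17, 1.87 and 2.02 CPM of miR-221-3p, those of the corpus 4.06, 3.72 and 6.31 and those of the cauda 2.62, 5.28 and 3.53. All 3 caput libraries lay below all others, and corpus and cauda overlapped. The means were 2.02 ± 0.154, 4.70 ± 1.41 and 3.81 ± 1.35 (SD, n = 3). As a share of the reads of both guides, miR-222-3p made up 31.5% to 34.9% in caput, 13.7% to 21.2% in corpus and 15.9% to 27.6% in cauda libraries. In the caput the ratio had a range of 1.87 to 2.17 while miR-221-3p itself ranged from 184 to 406 CPM. In the cauda, replicate 1 had the highest miR-222-3p (972 CPM) and the lowest ratio.

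**Figure D5:**
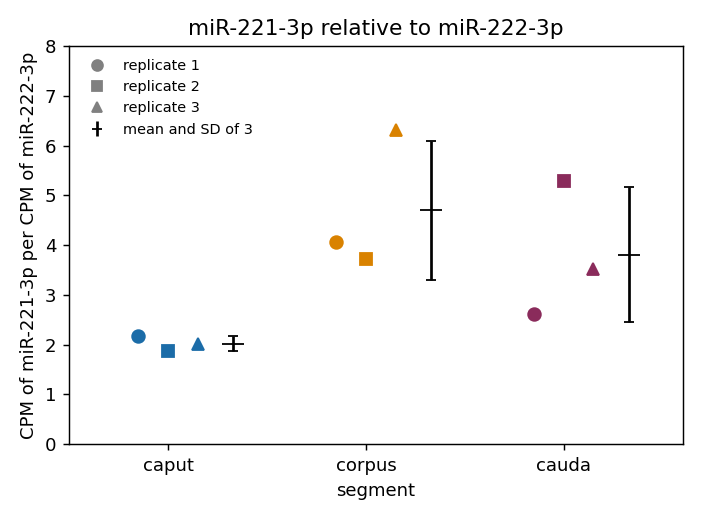
CPM of miR-221-3p per CPM of miR-222-3p in each library, by segment; symbols mark the replicate number and the bar gives the mean and SD of 3. The caput libraries lie between 1.87 and 2.17, and the corpus and cauda libraries between 2.62 and 6.31.

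The miRNAs whose pattern was most like that of each member were found by Pearson's r of log2(CPM + 1) over the 9 libraries. These values describe libraries that share segments and depth, and no p is given. miR-221-3p was most like miR-196b-5p (r = 0.988) and miR-196a-5p (r = 0.988), which derive from Hox clusters, followed by miR-5121 (0.975), miR-25-3p (0.968) and miR-708-3p (0.955). The first of these had means of 7.09, 93.9 and 1046 CPM from caput to cauda, a steeper course than that of miR-221-3p. miR-222-3p was most like miR-369-5p (0.973), miR-378d (0.964), miR-379-5p (0.958), miR-143-3p (0.955) and miR-27b-5p (0.955). miR-143-3p, a miRNA of smooth muscle, was the most abundant of these, with means of 62956, 99958 and 315271 CPM. The guides had r = 0.907 with each other, which was 29th of 357 for miR-221-3p and 26th for miR-222-3p.

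The pattern of miR-221-5p was less like any other miRNA, with miR-96-5p (0.836), miR-125b-1-3p (0.791), miR-338-3p (0.773), miR-582-5p (0.768) and miR-31-5p (0.735) nearest. With miR-221-3p, the other arm of its own hairpin, it had r = 0.190, which was 143rd of 357. With miR-222-3p it had r = 0.428.

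Because miR-221 and miR-222 are abundant in vessel walls, miRNAs of other cell types that a luminal preparation could hold were listed beside them. All 6 listed miRNAs of endothelium and smooth muscle were measured, and 4 of 6 rose from caput to cauda, beside 38.7% of all miRNAs. The 4 were both arms of miR-143 and of miR-145a, so they are not 4 separate markers. Neither arm of the endothelial miR-126a was called. The smooth muscle miRNAs miR-143-3p (log2 difference 2.37, SE 0.22, limma adjusted p = 6.5e-07), miR-145a-5p (1.85, SE 0.55, adjusted p = 0.0105) and miR-145a-3p (2.78, SE 0.47, adjusted p = 0.000192) rose. The endothelial miR-126a-5p (0.92, SE 0.39, adjusted p = 0.0598) did not pass the test, but passed without caput replicate 3 (1.32). The list's median difference was 1.69 against 0.81 for all miRNAs, and 2 of the 6, miR-143-3p and miR-145a-3p, passed after TMM normalization. miR-145a-5p did not pass without caput replicate 2 (1.46) or cauda replicate 3 (1.12), and 2 of the 6 were left without caput replicate 2. From caput to corpus, where miR-221-3p differed by 1.84, none of the 6 was called (0 higher, 0 lower), and from corpus to cauda 4 were higher, beside 14.0% of all miRNAs at that step. The latter count was 2 without corpus replicate 1, corpus replicate 2 or cauda replicate 3. The list's summed level was 50952 to 91666 CPM in caput, 90144 to 123727 CPM in corpus and 294359 to 357833 CPM in cauda libraries. Most of it was miR-143-3p, with a cauda mean of 315271 CPM.

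For red blood cells, 5 of 7 listed miRNAs were measured and 5 of 5 rose from caput to cauda, beside 38.7% of all miRNAs, with a median difference of 3.09. Of the 5, 3 were miR-486 entries (miR-486a-5p, miR-486b-5p and miR-486a-3p), so the 5 are not separate markers. miR-486a-3p and miR-144-3p averaged 0.109 and 4.54 CPM in the caput and 13.6 and 13.1 CPM in the cauda. They passed the filter of 10 CPM only through the cauda, where they were high, so nothing was read from their calls. The study probed its preparations for red blood cell proteins by immunoblot, which was not analysed here. miR-486a-5p (3.10) and miR-486b-5p (3.09) led the list by level, with almost identical values (cauda means of 1749 and 1743 CPM). miR-451a (2.16, SE 0.71, adjusted p = 0.0178) and miR-144-3p (1.90, adjusted p = 0.0234) followed. After TMM normalization the 3 miR-486 entries of the 5 passed, and miR-451a (1.50) and miR-144-3p (1.48) did not. Both also missed the test without caput replicate 2 or cauda replicate 2, and miR-144-3p without caput replicate 1. From caput to corpus 1 of the 3 tested was higher, miR-451a (2.29, SE 0.71, adjusted p = 0.0281), beside 19.0% of all miRNAs. After TMM normalization 0 were called at that step. From corpus to cauda the 3 miR-486 entries were higher, beside 14.0% of all miRNAs at that step. At the same step miR-451a differed by −0.13 (SE 0.71) and miR-144-3p by 0.66 (SE 0.65), and neither was called. The summed level was 223 to 848 CPM in caput, 390 to 1106 CPM in corpus and 3030 to 4365 CPM in cauda libraries. This sum may count the same reads under both miR-486a-5p and miR-486b-5p, so it may overstate the level.

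For leukocytes, 5 of 6 were measured and 3 of 5 rose from caput to cauda, beside the same 38.7%, with a median difference of 1.82. miR-223-3p of myeloid cells (1.82, adjusted p = 0.00423) and miR-142a-3p (2.14, adjusted p = 0.00621) rose, while miR-142a-5p (0.72, adjusted p = 0.337) and miR-150-5p of lymphocytes (0.58, adjusted p = 0.336) did not pass. From caput to corpus 0 of the 4 tested were called, and 0 to 3 in the alternatives, beside 19.0% of all miRNAs higher. The summed level was 231 to 530 CPM in caput, 515 to 1149 CPM in corpus and 392 to 1601 CPM in cauda libraries.

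For epithelium, the lining cell of the duct, all 6 listed miRNAs were measured. From caput to cauda 1 of 6 rose, miR-141-3p (1.16, SE 0.22, adjusted p = 0.000637), beside 38.7% of all miRNAs. The list's median difference was 0.33, below the 0.81 of all miRNAs. After TMM normalization 0 of the 6 were higher and 1 was lower, miR-200b-3p (−1.18), beside 84 higher and 73 lower of 350 miRNAs. On the CPM scale miR-200b-3p (−0.50, adjusted p = 0.280), miR-200a-3p (0.79, adjusted p = 0.0644) and miR-429-3p (0.42, adjusted p = 0.308), of the same family, did not pass. Without caput replicate 3, miR-200a-3p passed (1.03) and 2 of the 6 were higher. From caput to corpus 2 of the 6 were higher, beside 19.0% of all miRNAs. They were miR-141-3p (1.88, SE 0.22, adjusted p = 7.6e-05) and miR-200a-3p (1.20, SE 0.35, adjusted p = 0.0195). After TMM normalization 1 was higher and 1 lower at that step, beside 42 higher and 49 lower of 321 miRNAs. From corpus to cauda 0 of the 6 were called. The summed level was 21864 to 33624 CPM in caput, 73871 to 85321 CPM in corpus and 46003 to 62093 CPM in cauda libraries. Its largest part was miR-141-3p, with means of 17882, 65694 and 40435 CPM, and the course of the sum was mainly that of this miRNA. Listed miRNAs of the lining epithelium were thus abundant in every library. The summed levels of the endothelium and smooth muscle list and of the red blood cell list were highest in the cauda libraries, as were miR-221-3p and miR-222-3p. Most of these sums in the cauda came from miR-143-3p and from the miR-486 entries, respectively. The part of either list in the levels of the members was not tested.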

How the data were processed

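Small RNA of epididymosomes from the caput, corpus and cauda was sequenced in 3 libraries per segment. Segments and replicate numbers were taken from the sample labels. The labels name CASAVA 1.8.2 and Bowtie 1.1.1 among the tools. The authors report a screen of the reads for contaminants and adaptors with cutadapt and Bowtie. They counted known miRNAs with miRDeep2 and normalised for library size. The genome build and miRBase release are not given in the sources used here. The deposited values are CPM of 358 miRNAs, and all columns were used. The values of each library were whole multiples of 1 read within 0.01, from which reads and library totals were taken for Wilson intervals and limma-voom.

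Levels were fitted with limma 3.58 in R 4.3 (lmFit, eBayes with a trend) on log2(CPM + 1), with all 9 libraries and the segment as the only factor. P-values were adjusted (Benjamini-Hochberg) over the miRNAs that averaged 10 CPM or more in a compared segment, and a call needed an adjusted p under 0.05 and at least a 2-fold difference. Fold changes on this scale understate those of low miRNAs. Arm ratios were log2 of 5p over 3p, with 0.5 CPM added, fitted with limma without a trend for the 64 precursors whose arms each averaged 10 CPM or more. The scripts were tested on simulated data. Nothing in the labels ties a replicate to particular animals, so p-values measure the spread between these pools.

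The members, the lists of cell types and the comparisons were chosen with earlier results of these data known. Named were all members, the 5 miRNAs most correlated with each and the 3 precursors on either side of miR-221 by arm ratio. Also named were the 3 called precursors with the largest difference in each comparison. Of each list, values were given for up to 4 miRNAs by level, and also for those that passed the filter only through the cauda. TMM and median-of-ratios factors, other pseudocounts and filters, a replicate block and the leaving out of each library were tried. In this balanced design the block cannot move a difference between segments. Leaving out a library of the segment not compared cannot either. Tables were handled with Python 3.11, numpy 2.4, pandas 2.3 and statsmodels 0.14, and plots drawn with matplotlib 3.10.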

Additional observations from a re-analysis of the deposited data

How the results depend on the processing

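The arm ratio difference of miR-221 moved by under 1 within-segment SD in 36 of 36 alternatives, and member levels in 125 of 135. Of these, the replicate block and libraries left out of the segment not compared could not move a difference. The 10 exceptions came from the scaling, TMM first and median-of-ratios second in each pair: miR-221-3p at 1.27 and 1.32 from caput to corpus and 2.41 and 2.36 from caput to cauda, miR-222-3p at 0.089 and 0.14 and at 1.55 and 1.50, and miR-221-5p at −0.38 and −0.42 from caput to cauda. Over the whole table, 72, 65 and 171 miRNAs were called from caput to corpus, corpus to cauda and caput to cauda, split 61 higher to 11 lower, 48 to 17 and 135 to 36. With TMM the splits were 42 to 49, 56 to 34 and 84 to 73, and with median-of-ratios 43 to 46, 50 to 37 and 80 to 73. Without 1 library, the counts ranged from 46 (corpus replicate 1 left out) to 102, 32 to 83 and 132 to 202. From corpus to cauda they were 41, 32, 38 and 39 without corpus replicate 1 or 2 or cauda replicate 1 or 2. limma-voom gave 71, 46 and 172.

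Without 1 library, the differences from caput to corpus, corpus to cauda and caput to cauda lay between 1.52 and 2.08, 1.08 and 1.43, and 2.76 and 3.33 for miR-221-3p, between 0.39 and 0.90, 1.30 and 1.72, and 1.95 and 2.47 for miR-222-3p, and between −1.09 and −0.22, 0.47 and 1.35, and −0.02 and 0.47 for miR-221-5p. For the arm ratio of miR-221 they lay between −2.97 and −1.96, −0.86 and 0.15, and −2.98 and −2.72. From corpus to cauda the sign turned without corpus replicate 1. From caput to corpus the difference was smallest (−1.96) without corpus replicate 3, whose 5p arm had 7 reads. The number of precursors called ranged from 0 to 2, 1 to 12 and 1 to 18 around 1, 4 and 9. Further counts that moved without 1 library were 2 from caput to corpus without corpus replicate 2, cauda replicate 1 or cauda replicate 3, 2, 1 and 1 from corpus to cauda without corpus replicate 1, corpus replicate 2 or cauda replicate 2, and 4, 2, 3 and 2 from caput to cauda without caput replicate 2 or 3 or cauda replicate 1 or 2. The number was 0 from caput to corpus and 1 from caput to cauda without caput replicate 1, and 12 from corpus to cauda and 18 from caput to cauda without cauda replicate 3. From caput to corpus it was 2 with 5 CPM added and 2 with the replicate block. With both arms at 50 CPM, 19 precursors were left, miR-221 not among them, and 0 and 4 were called from caput to corpus and caput to cauda.

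With the replicate block, 83, 73 and 180 miRNAs and 2, 5 and 13 precursors were called. The block could not move member differences. Deviations of libraries with the same number correlated between −0.211 and 0.411 (median 0.122), and those with different numbers between −0.447 and 0.179 (median 0.022). A library correlated best with its own number in 10 of 18 cases, with 3 numbers to choose from. These values do not settle whether the numbers are pairs. The main fit did not take them as pairs, since the labels tie no replicate to particular animals. Of the named list miRNAs that missed the test from caput to cauda, the sign turned for miR-142a-5p (−0.0017 with median-of-ratios, and −0.090 to 1.34 without 1 library), miR-150-5p (−0.079 with TMM and −0.12 with median-of-ratios) and miR-429-3p (−0.25 and −0.30). A planned count model (edgeR) was not run, and limma-voom was the only fit on recovered reads. Low read numbers of miR-221-5p in the corpus limit its level and share there. The cause of the changes with scaling was not tested.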
